A study of Mus musculus with 36 samples.

Results

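RNA that mouse fibroblasts made between 30 and 60 min after interferon was compared directly between IFN alpha and IFN gamma. The comparison took the 3 arrays titled with IFN alpha and this window against the 3 titled with IFN gamma, 6 of the 36 arrays in the series, and every gene of the log2 table could enter it. In the first group, NIH-3T3 cells received fresh prewarmed medium with IFN alpha at 100 U/ml, and in the second the same medium with IFN gamma at 100 U/ml. In both, 4-thiouridine (4sU) was present at 500 µM from 30 to 60 min. Another group, given the same medium change and labelling without interferon (mock), did not enter the contrast, and its values stand beside the others for orientation. NIH-3T3 is an established line of mouse embryo fibroblasts, and the labels name no altered genotype. 4sU is a nucleoside that cells build into RNA while it is present, and the labels call the RNA on these arrays newly transcribed. The labels number the arrays 1 to 3 in each group without saying that they are separate cultures, so p-values measure only a spread between arrays. That spread, also used for each standard error (SE), was estimated from all 36 arrays of the series, not from the 6 alone.

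The interferons use different receptors. IFN alpha, a type I interferon, binds the IFNAR1 and IFNAR2 chains, and its kinases activate a complex with STAT2 and IRF9 that binds interferon-stimulated response elements. IFN gamma, the type II interferon, binds the IFNGR1 and IFNGR2 chains and acts mainly through gamma-activated sites. Isg15 is not analysed here.

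Pearson's correlation between arrays of a group ran from 0.97 to 0.986 with IFN alpha and from 0.97 to 0.985 with IFN gamma, across the 9549 genes tested. Of 18 fibroblast and matrix markers 17 passed the filter on low values, and vimentin (Vim) averaged 13.34 on the log2 scale over the 6 arrays. None of the T, B and NK cell, epithelial or endothelial markers passed it, and of 12 macrophage and dendritic markers only Cd14 did, at 5.21. Arrays with the same number shared technical features across treatments. The bioC hybridisation control, for example, stood at 10.57, 9.57 and 7.6 with IFN alpha and at 10.69, 9.74 and 7.75 with IFN gamma. The 3′ minus 5′ probe difference for Gapdh was -0.57, 0.73 and -0.08 with IFN alpha and -0.51, 0.56 and -0.01 with IFN gamma. These values moved with the array number and not with the interferon.

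The promoters below belong to called genes of a fixed panel or named for the size of their difference. Shown are the 4 largest differences in each direction whose window before the start held one of the 2 motifs searched. Genes named only as members of a gene list were not considered for printing. Some genes with large differences had no promoter sequence and were not searched. Mx1, Mx2, Usp18 and Tor3a were such genes higher with IFN alpha, and Ccl11, Rnd1, Sting1 and BC023105 such genes higher with IFN gamma. The sequences are the 250 bases before the annotated start, read 5′ to 3′ on the gene's strand, from RefSeq on build GRCm38.p6. Capitals mark matches to 1 of 2 motifs. The first, here the GAAA pair, is GAAA, then 2 bases of any kind, then GAAA again, the core of interferon-stimulated response elements, and on the other strand it reads TTTC, 2 bases, TTTC. The second is TTCNNNGAA, the core of gamma-activated sites, which reads the same on both strands. Both strands were searched, and no match of one motif overlapped a match of the other. The first 4 genes were higher with IFN alpha, the last 4 higher with IFN gamma.
Ifit3, chr19:34583279-34583528, plus strand: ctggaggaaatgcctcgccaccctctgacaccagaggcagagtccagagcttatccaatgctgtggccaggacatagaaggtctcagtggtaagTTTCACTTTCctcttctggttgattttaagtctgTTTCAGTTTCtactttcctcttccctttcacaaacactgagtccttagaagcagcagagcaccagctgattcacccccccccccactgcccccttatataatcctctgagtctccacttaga
Ifit1, chr19:34640639-34640888, plus strand: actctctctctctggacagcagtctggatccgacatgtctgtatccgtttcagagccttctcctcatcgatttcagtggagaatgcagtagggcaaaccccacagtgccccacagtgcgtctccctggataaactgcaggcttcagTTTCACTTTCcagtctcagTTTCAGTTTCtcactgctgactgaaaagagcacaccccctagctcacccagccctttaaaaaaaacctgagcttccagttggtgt
Rsad2, chr12:26456453-26456702, minus strand: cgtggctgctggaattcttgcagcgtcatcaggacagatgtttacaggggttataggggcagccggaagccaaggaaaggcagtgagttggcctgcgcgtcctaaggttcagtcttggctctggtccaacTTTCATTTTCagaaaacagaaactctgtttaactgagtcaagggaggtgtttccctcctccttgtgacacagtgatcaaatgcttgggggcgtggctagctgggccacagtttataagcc
Ifit1bl1, chr19:34601969-34602218, minus strand: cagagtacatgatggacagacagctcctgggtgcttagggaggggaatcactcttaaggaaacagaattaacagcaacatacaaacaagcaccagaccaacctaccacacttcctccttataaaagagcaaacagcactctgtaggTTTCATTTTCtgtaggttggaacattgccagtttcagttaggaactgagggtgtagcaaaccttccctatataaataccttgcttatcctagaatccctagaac
Icam1, chr9:21015690-21015939, plus strand: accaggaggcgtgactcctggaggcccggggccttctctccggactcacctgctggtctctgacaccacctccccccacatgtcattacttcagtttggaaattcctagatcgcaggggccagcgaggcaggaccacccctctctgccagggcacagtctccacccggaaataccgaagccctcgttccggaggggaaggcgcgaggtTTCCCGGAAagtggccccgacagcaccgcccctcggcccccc
Socs1, chr16:10785537-10785786, minus strand: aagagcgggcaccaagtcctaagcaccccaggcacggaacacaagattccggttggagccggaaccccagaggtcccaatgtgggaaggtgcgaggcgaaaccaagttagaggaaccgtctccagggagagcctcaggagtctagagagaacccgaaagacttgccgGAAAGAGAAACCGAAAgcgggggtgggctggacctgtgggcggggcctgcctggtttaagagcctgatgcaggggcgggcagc
Irf1, chr11:53769764-53770013, plus strand: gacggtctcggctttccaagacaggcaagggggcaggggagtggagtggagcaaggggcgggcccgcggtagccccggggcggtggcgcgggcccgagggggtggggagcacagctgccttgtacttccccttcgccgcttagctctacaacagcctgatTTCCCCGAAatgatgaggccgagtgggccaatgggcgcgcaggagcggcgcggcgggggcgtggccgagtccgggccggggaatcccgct
Socs3, chr11:117969367-117969616, minus strand: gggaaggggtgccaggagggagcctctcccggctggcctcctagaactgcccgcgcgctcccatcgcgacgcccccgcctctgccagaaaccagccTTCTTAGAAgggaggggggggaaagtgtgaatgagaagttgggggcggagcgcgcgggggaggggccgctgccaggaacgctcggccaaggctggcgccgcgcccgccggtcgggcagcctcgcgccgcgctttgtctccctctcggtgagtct

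Ifit3 and Ifit1 each held 2 matches to the GAAA pair, Rsad2 and Ifit1bl1 held 1, and Socs1 held 2 that overlapped each other. Icam1, Irf1 and Socs3 each held 1 match to TTCNNNGAA. Over windows from 250 bases before to 50 after the start, the GAAA pair was found for 27 of the 232 genes higher with IFN alpha that had a promoter in the table (11.6%), and for 4 of the 212 higher with IFN gamma (1.89%). Of all 7826 tested genes with a promoter, 283 held it (3.62%). TTCNNNGAA was found for 17 of the 232 genes higher with IFN alpha (7.33%) and for 38 of the 212 higher with IFN gamma (17.9%), against 619 of all 7826 (7.91%). These shares are descriptions of the 2 sets and were not tested. Among all promoters of the table, 1131 of 32851 held the GAAA pair (3.44%) and 2726 of 32851 held TTCNNNGAA (8.3%). A match is a description of letters, and no match says only that these letters are not in this window.

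At 30 to 60 min the 2 interferons differed in the new RNA of several gene groups. Higher with IFN alpha were 18 of 27 tested antiviral effector genes, 11 of 18 sensor and ADP-ribosylation genes and 10 of 16 TRIM, PML body and ubiquitin genes, where 2, 1 and 0 were lower. The lists were chosen with earlier results of these data known, so these counts describe the lists and do not test them. The differences reached 7.21 log2 units. The chemokine genes Cxcl9 and Ccl11, the transcription factor gene Irf1, and the feedback inhibitor genes Socs1, Socs3 and Cish were higher with IFN gamma. The GTPase genes Gbp2, Iigp1 and Igtp were far above mock with both interferons, and the test did not separate the interferons for any of the 11 genes of their list, though with the array number as a block 1 was higher and 3 lower with IFN alpha. Of 9549 genes tested, 284 were higher with IFN alpha (2.97%) and 260 were lower with IFN alpha, that is higher with IFN gamma (2.72%), at an adjusted p under 0.05 by limma. Together they made 544 called genes (5.7%). At an unadjusted p under 0.05, 669 of the 9549 were higher (7.01%) and 531 lower with IFN alpha (5.56%).

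**Figure D1:**
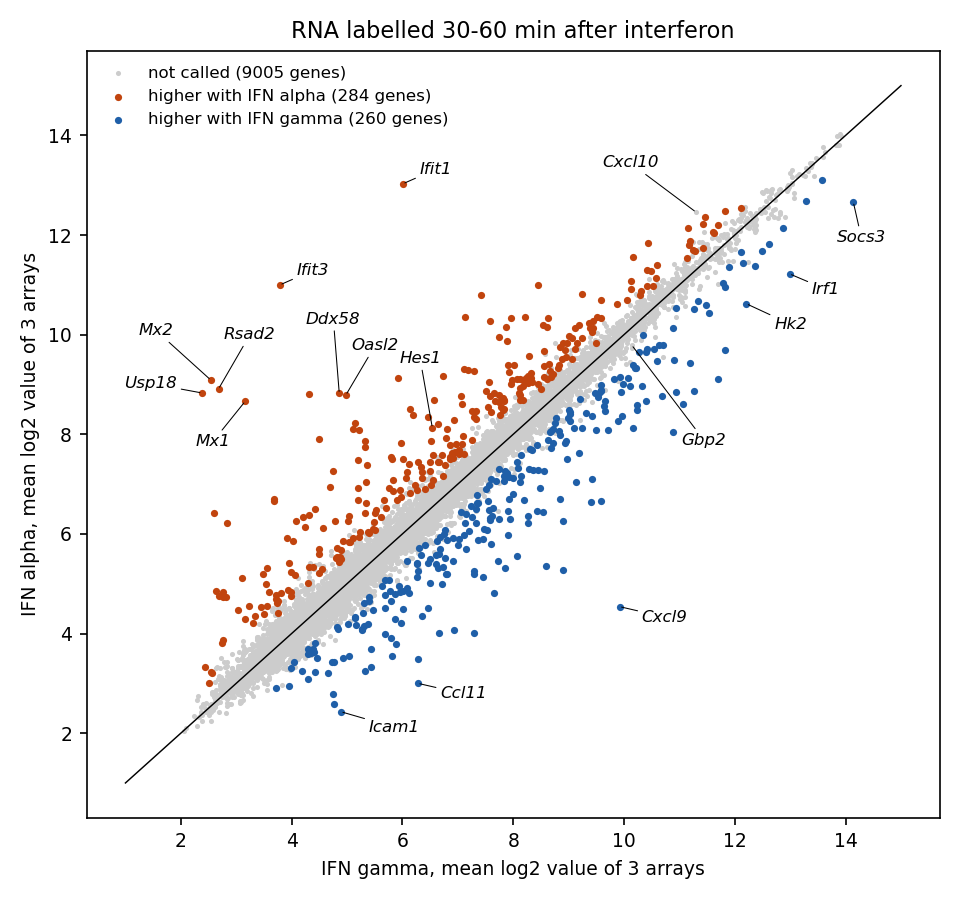
Each point is a gene; the vertical axis is its mean log2 value over 3 IFN alpha arrays and the horizontal axis its mean over 3 IFN gamma arrays, both at 30-60 min. The 284 genes higher with IFN alpha lie above the line of equal values and reach farthest from it at Ifit3 and Ifit1, while the 260 higher with IFN gamma lie below it, with Cxcl9 farthest.

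The differences among genes higher with IFN alpha had a median size of 0.94 on the log2 scale, 131 passed 2-fold, 46 passed 4-fold and 7 passed 16-fold. Among those higher with IFN gamma the median size was 1.06, with 136 past 2-fold, 37 past 4-fold and 1 past 16-fold. The median over all tested genes was 0.016. The arrays of the 2 interferons did not overlap for 273 of the 284 genes and for 250 of the 260, where such separation held for 16.1% of all tested genes, in 8.94% with IFN alpha above and in 7.18% with IFN alpha below. The lower group averaged under log2 4, the filter on low values, for 45 of the 284 and 31 of the 260 genes. A fold against so low a level can be understated, since array background sets the low value.

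Against mock in this window 229 genes were higher with IFN alpha (2.4%) and 18 lower (0.189%), 2.59% in all. With IFN gamma 365 were higher than mock (3.82%) and 197 lower (2.06%), 5.89% in all. These 2 comparisons share the mock arrays. Of the 284 genes higher with IFN alpha, 173 had mock nearer to the IFN gamma level and 111 nearer to the IFN alpha level, and 58 had mock above both. Of the 260 genes higher with IFN gamma, 250 had mock nearer to the IFN alpha level, 10 nearer to the IFN gamma level, and 3 had mock above both. Arrays with the same number deviated together (correlations of deviations 0.673, 0.62 and 0.317), and with the number as a block 549 genes were called higher (5.75%) and 437 lower (4.58%) with IFN alpha, including all 544.

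Antiviral effectors were among the largest differences. Of 27 tested genes in the list of IFIT, Mx, OAS and viperin effectors, 18 were higher and 2 lower with IFN alpha, beside 2.97% and 2.72% over all genes. The median difference of the list was 1.97, beside 0.02 over all tested genes. Ifit3, whose product binds viral RNA together with other IFIT proteins, stood at 11.06, 10.58 and 11.35 on the log2 scale with IFN alpha and at 3.92, 3.43 and 4.01 with IFN gamma, with mock at 2.93, 2.78 and 3.17. All IFN alpha arrays lay far above all others, and the difference was 7.21 ± 0.40 (SE, n = 3 arrays each) (adjusted p = 7.5e-14). Ifit3 has a near-identical copy, Ifit3b, that these probes may not tell apart from it. Ifit1, which binds viral RNA lacking a mature cap, stood at 12.63, 13.3 and 13.16 with IFN alpha and at 5.37, 6.07 and 6.58 with IFN gamma, with mock at 3.72, 4.34 and 4.09. Both interferons exceeded mock, and IFN alpha exceeded IFN gamma by 7.02 ± 0.50 (adjusted p = 6.5e-12). The size of such differences depends on the low values: with 16 added before the log, Ifit3 differed by 6.10 (68.6-fold) and Ifit1 by 6.69 (103-fold), so their order turned.

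Several effectors were near background with IFN gamma. Mx2, a dynamin-like antiviral GTPase, was at 9.16, 8.78 and 9.33 with IFN alpha and at 2.54, 2.53 and 2.55 with IFN gamma, the level of mock (2.54, 2.53 and 2.53). Rsad2, which encodes viperin, an enzyme that makes a chain-terminating nucleotide, was at 8.74, 8.53 and 9.46 with IFN alpha and at 2.88, 2.27 and 2.89 with IFN gamma. Mx1, the nuclear Mx protein of the mouse, was at 8.6, 8.29 and 9.1 with IFN alpha and at 2.99, 3.32 and 3.18 with IFN gamma. The 3 genes did not overlap between the interferons and differed by 6.55 ± 0.43, 6.22 ± 0.59 and 5.50 ± 0.42 (limma, adjusted p = 1.5e-12, 2.4e-09 and 2.4e-11). With 16 added before the log they differed by 4.68, 4.46 and 4.08.

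Oasl2, an oligoadenylate synthetase family member, differed by 3.81 ± 0.45 (adjusted p = 1.9e-07) from means of 8.79 with IFN alpha and 4.98 with IFN gamma, both above the mock mean of 2.93. Eif2ak2, which encodes the RNA-activated kinase PKR, differed by 2.28, Zc3hav1, the zinc finger antiviral protein, by 2.14 and Ifit2 by 2.22. Cmpk2, Samd9l and Rtp4 differed by 3.39, 3.38 and 2.69. The 2 members lower with IFN alpha were Samhd1, a deoxynucleotide triphosphatase that restricts retroviruses, and Ifitm2, of the family that blocks viral entry. Samhd1 averaged 8.77 with IFN alpha and 10.68 with IFN gamma, a difference of -1.91 ± 0.19 (limma, adjusted p = 3.7e-09), and both interferons lay above the mock mean of 6.13. Ifitm2 differed by -0.98 ± 0.20 (limma, adjusted p = 0.001), and its call was lost when only the 6 arrays compared were fitted (adjusted p = 0.094).

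Tor3a, a torsin ATPase of the endoplasmic reticulum, was named for its size of difference alone: it stood at 8.77, 8.75 and 8.92 with IFN alpha and at 4.6, 4.14 and 4.23 with IFN gamma, a difference of 4.49 ± 0.28 (adjusted p = 6.6e-13). Ifit1bl1, a further IFIT family gene, averaged 6.42 with IFN alpha and 2.59 with IFN gamma (difference 3.83 ± 0.56, adjusted p = 8.4e-06). In both genes the arrays of the 2 interferons were apart.

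Sensors of viral nucleic acid and ADP-ribosylation genes moved mainly one way: of 18 tested, 11 were higher and 1 lower with IFN alpha, with a median of 1.58. Over all genes the shares were 2.97% higher and 2.72% lower. Ddx58, which encodes the RNA sensor RIG-I, stood at 8.81, 8.71 and 8.93 with IFN alpha and at 4.46, 5.04 and 5.08 with IFN gamma, near mock at 4.57, 4.35 and 4.2. The difference was 3.96 ± 0.27 (limma, adjusted p = 3e-12), with no overlap. Tlr3, the endosomal receptor for double-stranded RNA, differed by 2.98, Dhx58, a regulator of RIG-I, by 2.21, and Cgas, the cytosolic DNA sensor, by 1.04. Parp14, an ADP-ribosyltransferase, averaged 8.08 with IFN alpha and 5.22 with IFN gamma, a difference of 2.86 ± 0.27 (adjusted p = 1.7e-09), and both exceeded the mock mean of 2.70. Parp9 and its partner Dtx3l differed by 2.21 and 2.13.

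The exception in this list was Sting1, the adaptor that acts downstream of cGAS. It stood at 4.53, 5.02 and 4.87 with IFN alpha, at 7.42, 7.97 and 7.61 with IFN gamma, and at 2.69, 3.93 and 2.79 in mock. Every IFN gamma array lay above every IFN alpha array, and the difference was -2.86 ± 0.42 (limma, adjusted p = 8.4e-06). The sensor gene Cgas was thus higher with IFN alpha and its adaptor gene higher with IFN gamma.

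Of 16 tested TRIM, PML body and ubiquitin genes 10 were higher and 0 lower with IFN alpha (median 1.04), by limma, beside 2.97% and 2.72% over all genes. At an unadjusted p under 0.05 the counts were 11 and 0, beside 7.01% and 5.56% over all genes. Rnf213, a large ubiquitin ligase, averaged 10.35 with IFN alpha and 7.13 with IFN gamma, a difference of 3.22 ± 0.31 (adjusted p = 2.4e-09). Trim30a differed by 3.07 ± 0.22, Trim26 by 1.70 ± 0.17 and Daxx, a histone chaperone of PML bodies, by 2.43 ± 0.25 (limma, adjusted p = 7.9e-12, 8.2e-09 and 1.5e-08). Pml and Sp100, which build those bodies, differed by 1.16 and 1.07. The other probe set of Rnf213 was not called.

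Among 12 interferon regulatory factors and partners, 3 were higher and 1 lower with IFN alpha, beside 2.97% and 2.72% over all genes. Irf1, a transcription factor of the early interferon response, stood at 11.02, 11.25 and 11.4 with IFN alpha, at 12.69, 13.24 and 13.05 with IFN gamma, and at 6.95, 7.19 and 7.28 in mock. Both interferons lay far above mock, and every IFN gamma array lay above every IFN alpha array (difference -1.77 ± 0.19, adjusted p = 2.4e-08). Irf7, a factor that amplifies type I interferon production, was low on both sides but separate, at 4.79, 4.85 and 4.89 with IFN alpha and 2.52, 2.9 and 2.86 with IFN gamma (difference 2.08 ± 0.28, adjusted p = 2.2e-06). Ifi35 and its partner Nmi differed by 2.37 ± 0.31 and 1.10 ± 0.24 (adjusted p = 9.7e-07 and 0.0024), and Nmi lost the call when only those 6 arrays were fitted (adjusted p = 0.11). Irf9, the DNA-binding part of the type I complex, averaged 8.82 with IFN alpha and 8.32 with IFN gamma, against 5.08 in mock, and its difference of 0.50 ± 0.17 missed the threshold (adjusted p = 0.11) but passed it with the array number as a block (adjusted p = 0.028).

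Of 16 tested receptor and JAK-STAT genes 0 were higher and 3 lower with IFN alpha, beside 2.97% and 2.72% over all genes. With the block 2 were higher and 5 lower, beside 5.75% and 4.58%, and at an unadjusted p under 0.05 limma gave 3 higher and 5 lower, beside 7.01% and 5.56%. Il6st, which encodes the gp130 receptor chain shared by IL-6 family cytokines, stood at 10.93, 10.96 and 10.99 with IFN alpha and at 11.73, 11.77 and 11.96 with IFN gamma (difference -0.86 ± 0.13, adjusted p = 2.3e-05). IFN alpha arrays stayed near mock (10.86, 10.78 and 10.81). Only 1 of the 3 other probe sets of Il6st was called. Stat3, the main transcription factor below gp130, differed by -0.93 ± 0.24 (adjusted p = 0.011), and Ifnar2, a chain of the IFN alpha receptor, by -0.75 ± 0.20 (adjusted p = 0.016). Both lost the call without IFN alpha array 1 (-0.82, adjusted p = 0.072, for Stat3; -0.62, adjusted p = 0.11, for Ifnar2), without IFN gamma array 2 (-0.76, adjusted p = 0.1; -0.69, adjusted p = 0.075) and without IFN gamma array 3 (-0.87, adjusted p = 0.056; -0.69, adjusted p = 0.08). Of other probe sets, 2 of 3 were called for Stat3 and 0 of 2 for Ifnar2. Stat2 averaged 7.04 with IFN alpha and 6.14 with IFN gamma (limma, adjusted p = 0.35, and 0.046 with the block).

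Feedback inhibitors split by interferon. Of 16 tested, 2 were higher and 4 lower with IFN alpha, beside 2.97% and 2.72% over all genes. Usp18, which removes ISG15 from proteins and blocks the IFN alpha receptor, stood at 8.47, 8.97 and 9.05 with IFN alpha and at 2.27, 2.2 and 2.68 with IFN gamma, with mock at 2.13, 2.12 and 2.13. The difference of 6.44 ± 0.50 (adjusted p = 3.1e-11) left IFN gamma arrays near mock. Socs2, a suppressor of cytokine signalling, averaged 6.69 with IFN alpha and 5.20 with IFN gamma (difference 1.50 ± 0.24, adjusted p = 2.8e-05).

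Socs1, which inhibits JAK kinases, ran the other way, at 5.77, 5.99 and 6.89 with IFN alpha, at 7.43, 8.68 and 8.66 with IFN gamma, and at 4.66, 5.06 and 5.16 in mock (difference -2.04 ± 0.34, adjusted p = 6.4e-05). Socs3, which inhibits gp130 signalling, was at 12.44, 12.7 and 12.83 with IFN alpha and at 14.16, 14.11 and 14.15 with IFN gamma (difference -1.48 ± 0.15, adjusted p = 5.2e-09). In both genes all IFN gamma arrays lay above all IFN alpha arrays. Cish, a related inhibitor, differed by -1.55 ± 0.27 (adjusted p = 0.00014). Ptpn1, a phosphatase that acts on JAK kinases, differed by -0.72 ± 0.18 (adjusted p = 0.0076) and lost the call without IFN alpha array 1 (-0.55, adjusted p = 0.096) or IFN gamma array 2 (-0.62, adjusted p = 0.067).

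**Figure D2:**
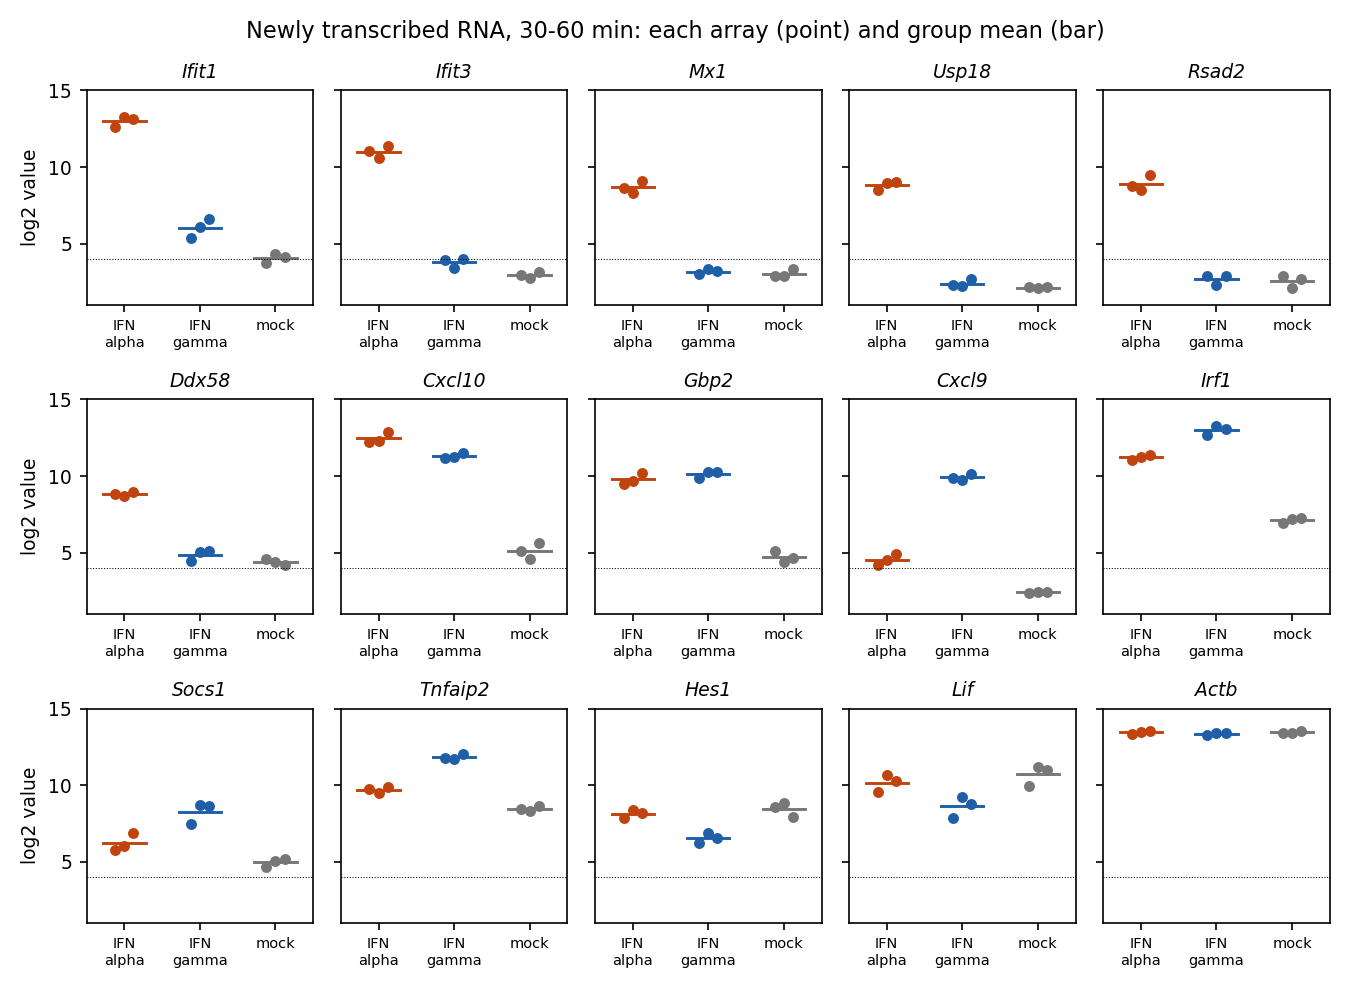
Log2 values of 15 genes on the 3 arrays (points) of each treatment at 30-60 min, with the group mean as a bar and the low-value filter at log2 4 as a dotted line. Ifit1, Ifit3, Mx1, Usp18, Rsad2 and Ddx58 are highest with IFN alpha, Cxcl9, Irf1, Socs1 and Tnfaip2 with IFN gamma, Hes1 and Lif lowest with IFN gamma, and Actb level in all 3.

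Interferon-inducible GTPases gave 0 calls by limma in either direction among 11 tested (median -0.40), where 2.97% and 2.72% of all genes were called. At an unadjusted p under 0.05, 1 was higher and 4 lower with IFN alpha, beside 7.01% and 5.56% over all genes, and with the block 1 and 3, beside 5.75% and 4.58%. Gbp2, a guanylate-binding protein that attacks vacuoles of intracellular pathogens, stood at 9.45, 9.68 and 10.23 with IFN alpha, at 9.87, 10.28 and 10.26 with IFN gamma, and at 5.07, 4.38 and 4.65 in mock. The interferon arrays overlapped and both exceeded mock (difference between interferons -0.35 ± 0.35, adjusted p = 0.90). Iigp1, an immunity-related GTPase, averaged 9.56 with IFN alpha and 10.70 with IFN gamma, against 2.73 in mock, and Igtp, another, averaged 9.80 and 10.69, against 2.73. Their differences of -1.14 ± 0.36 and -0.89 ± 0.29 missed the threshold (limma, adjusted p = 0.066 and 0.076) and passed it with the block (adjusted p = 0.00039 and 0.021). A p that misses the threshold does not show that the interferons act alike on these genes.

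In the MHC class I and antigen processing list 3 of 14 tested genes were higher and 1 lower with IFN alpha (median 0.30). Over all genes the shares were 2.97% and 2.72%. Psmb9, an immunoproteasome subunit, stood at 4.3, 3.92 and 4.68 with IFN alpha, at 5.64, 6.32 and 5.64 with IFN gamma, and at 2.63, 2.51 and 2.56 in mock (difference -1.57 ± 0.21, adjusted p = 2.2e-06). Another subunit, Psmb10, went the other way, with means of 5.00 with IFN alpha and 3.54 with IFN gamma (difference 1.46 ± 0.30, adjusted p = 0.00097). H2-M3, a class I molecule that presents formylated peptides, differed by 1.70 ± 0.21, and Tapbp, the peptide-loading chaperone tapasin, by 1.49 ± 0.30 (limma, adjusted p = 4.5e-07 and 0.0008). The other probe set of Tapbp was not called.

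Tap1, a chain of the peptide transporter, was raised by both, with means of 7.39 with IFN alpha and 8.09 with IFN gamma, against 2.46 in mock (difference -0.70 ± 0.28, adjusted p = 0.21). B2m, the class I light chain, differed by 0.38 ± 0.21 (adjusted p = 0.5; 0.0032 with the block). No MHC class II gene passed the filter.

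Chemokines differed in 4 of 12 tested genes, all lower with IFN alpha, beside 2.72% lower over all genes. At an unadjusted p under 0.05 limma gave 1 higher and 5 lower, beside 7.01% and 5.56% over all genes. Cxcl9, which attracts activated T cells through CXCR3, stood at 4.19, 4.54 and 4.9 with IFN alpha, at 9.87, 9.77 and 10.1 with IFN gamma, and at 2.36, 2.45 and 2.42 in mock. It gave the largest difference toward IFN gamma among the genes named by size, -5.37 ± 0.48 (adjusted p = 6.9e-10), or -4.64 with 16 added before the log. Ccl11, the eosinophil attractant eotaxin, was at 2.86, 3.15 and 2.97 with IFN alpha, near mock (2.81, 2.88 and 2.73), and at 6.19, 6.24 and 6.4 with IFN gamma (difference -3.28 ± 0.24, adjusted p = 8.5e-12). Cx3cl1 and Cxcl12 differed by -1.55 ± 0.32 and -0.86 ± 0.16 (limma, adjusted p = 0.0014 and 0.00029). The other probe set of Cxcl12 was not called.

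Cxcl10, a CXCR3 ligand like Cxcl9, did not follow it. It stood at 12.22, 12.28 and 12.88 with IFN alpha, at 11.15, 11.25 and 11.51 with IFN gamma, and at 5.1, 4.61 and 5.64 in mock. All IFN alpha arrays lay above all IFN gamma arrays, yet the difference of 1.16 ± 0.47 missed the threshold (adjusted p = 0.22) and passed it with the block (adjusted p = 0.00012). Cd274, which encodes the T cell inhibitory ligand PD-L1, averaged 7.55 with IFN alpha and 6.62 with IFN gamma, against 2.51 in mock (difference 0.93 ± 0.39, adjusted p = 0.26).

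Of 13 tested cytokines and immune ligands 3 were higher and 0 lower with IFN alpha by limma, beside 2.97% and 2.72% over all genes. The block gave 6 and 0, beside 5.75% and 4.58%. An unadjusted p under 0.05 gave 5 and 0, beside 7.01% and 5.56%. Lif, an IL-6 family cytokine, stood at 9.52, 10.63 and 10.28 with IFN alpha, at 7.83, 9.24 and 8.76 with IFN gamma, and at 9.95, 11.21 and 11 in mock. Each IFN gamma array lay below the IFN alpha and mock arrays of the same number, and the difference between the interferons was 1.54 ± 0.29 (adjusted p = 0.00033), or adjusted p = 0.097 with only the 6 arrays compared in the fit. Tslp, an epithelial cytokine, averaged 6.92 with IFN alpha and 5.20 with IFN gamma, against 6.27 in mock (difference 1.71 ± 0.25, adjusted p = 8.8e-06). The third member, Cd47, differed by 0.56 ± 0.17 (adjusted p = 0.041) and lost the call without any 1 of the 6 arrays (adjusted p from 0.056 to 0.16).

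Hes1 had the pattern of Lif, with IFN gamma below mock and IFN alpha near it. The gene encodes a repressor that Notch signalling induces, and it stood at 7.85, 8.34 and 8.2 with IFN alpha, at 6.2, 6.88 and 6.53 with IFN gamma, and at 8.55, 8.83 and 7.92 in mock. IFN gamma arrays lay below all others, and the difference between the interferons was 1.59 ± 0.24 (adjusted p = 1.7e-05). Against mock, Hes1 differed by -0.31 with IFN alpha (adjusted p = 0.92) and by -1.90 with IFN gamma (adjusted p = 7.2e-07). Notch1, a receptor of that pathway, went the other way, at means of 5.19 with IFN alpha and 6.79 with IFN gamma (difference -1.60 ± 0.27, limma, adjusted p = 6.5e-05). Of 9 tested Notch pathway genes only Hes1 and Notch1 were called, beside 5.7% of all genes.

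Among 40 tested immediate-early genes 5 were higher and 2 lower with IFN alpha, beside 2.97% and 2.72% over all genes. The block gave 11 and 5, beside 5.75% and 4.58%. Dusp1, a phosphatase that switches off MAP kinases, was at 11.75, 11.8 and 11.99 with IFN alpha, at 10.22, 10.4 and 10.68 with IFN gamma, and at 11.97, 12.03 and 12.52 in mock (difference 1.41 ± 0.23, adjusted p = 5.7e-05). Nr4a3, an orphan nuclear receptor, and Rgs2, a regulator of G protein signalling, differed by 1.02 ± 0.20 and 0.80 ± 0.16 (limma, adjusted p = 0.00048 and 0.00061). Atf3, a stress-induced factor, differed by -0.77 ± 0.17 (adjusted p = 0.0036), and without IFN alpha array 1 by -0.61 (adjusted p = 0.053). Fos was high in both groups, at means of 12.74 with IFN alpha and 13.07 with IFN gamma (adjusted p = 0.72).

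Of 16 TGF-beta and BMP targets 3 were higher and 1 lower with IFN alpha, beside 2.97% and 2.72% over all genes. The block gave 6 and 1, beside 5.75% and 4.58%. When each of the 6 arrays was left out in turn, Skil lost the call in all 6 fits. Tgif1 (higher) and Smad6 (lower) lost it in 5, and Id4 kept it in all 6. Id4, an inhibitor of DNA-binding proteins that BMP signalling induces, averaged 9.94 with IFN alpha and 9.06 with IFN gamma, against 10.29 in mock (difference 0.88 ± 0.16, adjusted p = 0.00015). Of 25 cell cycle genes 3 were higher and 0 lower by limma (2.97% and 2.72% over all genes). The counts were 6 and 0 with the block (5.75% and 4.58%) or at an unadjusted p under 0.05 (7.01% and 5.56%). Ccnd1, which encodes cyclin D1, averaged 8.64 with IFN alpha and 7.75 with IFN gamma, against 8.76 in mock (difference 0.89 ± 0.18, adjusted p = 0.00092). Id4 and Ccnd1 were thus lowest with IFN gamma, as Hes1 and Lif were.

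**Figure D3:**
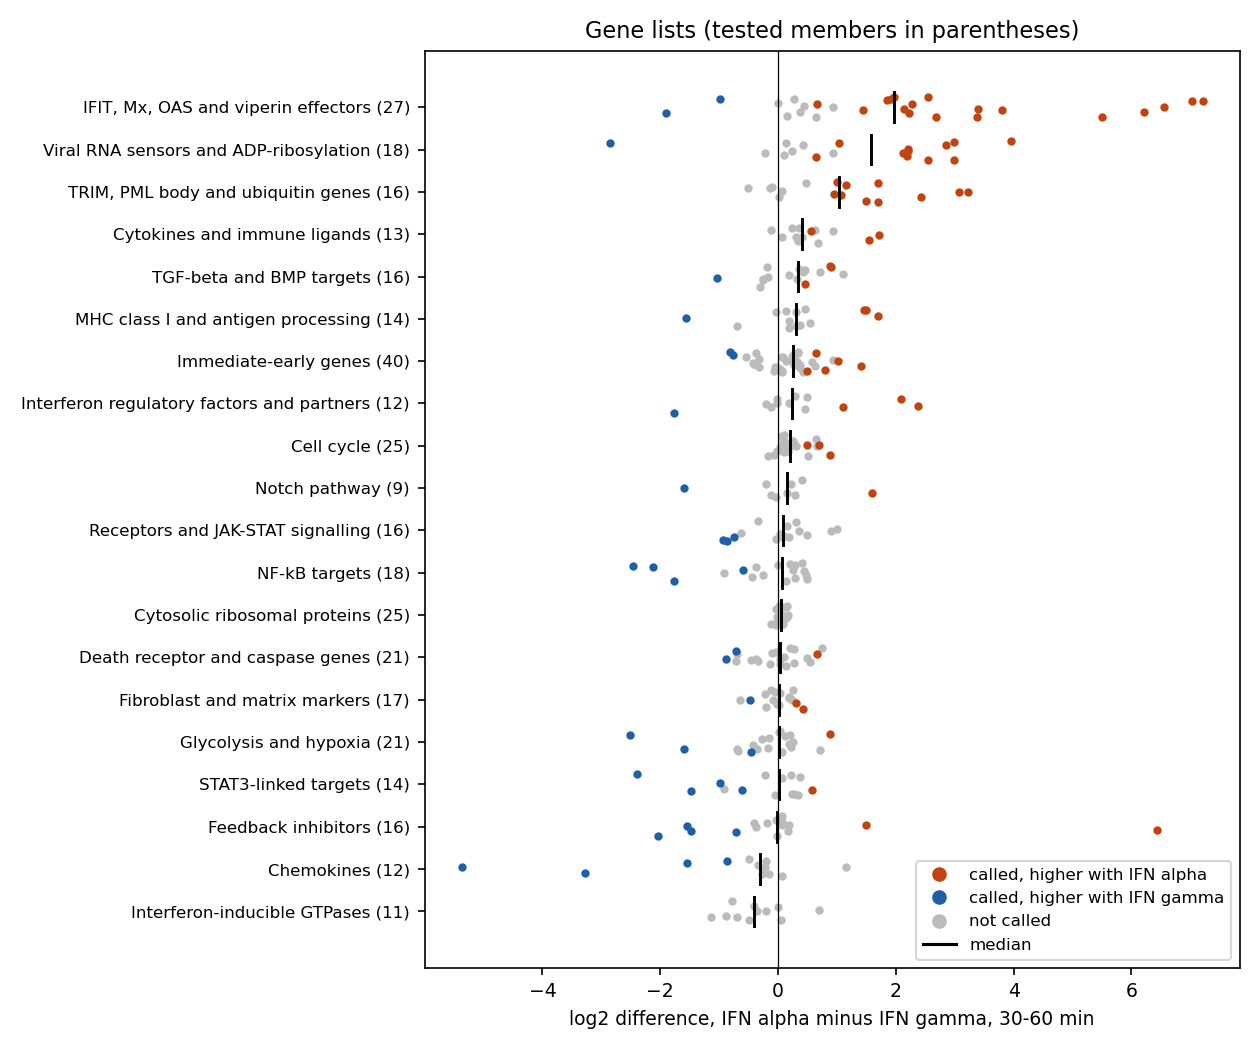
Log2 difference, IFN alpha minus IFN gamma at 30-60 min, for each tested member (points, with random vertical spread) of 20 gene lists, ordered by their median (black bar). The effector list has the highest median, 1.97, and the GTPase list the lowest, -0.40, while the 25 ribosomal protein genes sit at 0.05 with no call.

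NF-kB target genes differed in 4 of 18 tested, all lower with IFN alpha, beside 2.72% lower over all genes. Under the block 3 were higher and 5 lower, beside 5.75% and 4.58%. Icam1, an adhesion molecule that binds leukocyte integrins, stood at 2.41, 2.46 and 2.41 with IFN alpha, at 5.29, 4.37 and 5.02 with IFN gamma, and at 2.4, 2.41 and 2.4 in mock. The IFN gamma arrays stood apart from the others (difference -2.47 ± 0.16, adjusted p = 9.1e-13). Tnfaip2, a gene induced by TNF, was at 9.75, 9.48 and 9.85 with IFN alpha and at 11.78, 11.68 and 12.02 with IFN gamma (difference -2.13 ± 0.16, adjusted p = 1.4e-11). Sod2, the mitochondrial superoxide dismutase, differed by -1.76 ± 0.20 (adjusted p = 9.4e-08). The fourth, Tnip1, differed by -0.60 ± 0.16 (adjusted p = 0.018), and lost the call without IFN alpha array 1 (-0.52, adjusted p = 0.11) or 2 (-0.58, adjusted p = 0.07) or IFN gamma array 3 (-0.52, adjusted p = 0.11). Most classical NF-kB targets in the list were not called, Nfkbia, which encodes the inhibitor of NF-kB, among them (0.26, adjusted p = 0.13).

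Genes linked to STAT3 were lower with IFN alpha in 4 of 14 tested and higher in 1, beside 2.72% and 2.97% over all genes. The block gave 5 lower and 1 higher, beside 4.58% and 5.75%. Socs3, already counted among the feedback inhibitors, was 1 of the 4. Pim3, a survival kinase, stood at 8.94, 8.8 and 8.83 with IFN alpha, slightly under mock (9.25, 9.04 and 9.18), and at 11.37, 11.19 and 11.23 with IFN gamma. No arrays overlapped, and the difference was -2.40 ± 0.15 (adjusted p = 9.1e-13), though 1 of its 2 other probe sets was not called. Pim1, a related kinase, differed by -0.61 ± 0.13 (adjusted p = 0.0016). Cebpd, a transcription factor of the acute phase, differed by -0.98 ± 0.25 (adjusted p = 0.011). It lost the call without IFN alpha array 1 (-0.69, adjusted p = 0.15), IFN gamma array 2 (-0.80, adjusted p = 0.11) or IFN gamma array 3 (-0.93, adjusted p = 0.054).

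Metabolic genes gave a few calls, all but 1 toward IFN gamma. The 21 tested glycolysis and hypoxia genes held 1 higher and 3 lower with IFN alpha, beside 2.97% and 2.72% over all genes. Hk2, the hexokinase that commits glucose to glycolysis, stood at 10.53, 10.66 and 10.65 with IFN alpha, at 12.2, 12.28 and 12.14 with IFN gamma, and at 9.93, 10.03 and 9.9 in mock (difference -1.59 ± 0.11, adjusted p = 6.5e-12). Bnip3, a mitophagy receptor, was at 5.43, 5.61 and 5.63 with IFN alpha and at 8.05, 8.05 and 8.11 with IFN gamma (difference -2.52 ± 0.29, adjusted p = 9.4e-08). Txnip, a thioredoxin inhibitor that limits glucose uptake, was at 8.19, 7.6 and 8.37 with IFN alpha and at 10.81, 10.74 and 11.07 with IFN gamma (difference -2.82 ± 0.22, adjusted p = 3.3e-11), and its other probe set was not called. In mock these last genes moved with the window: Bnip3 averaged 8.72 at 0-30, 4.82 at 30-60 and 8.64 at 150-180 min, and Txnip 10.14, 7.77 and 10.51. With IFN gamma at 30-60 min they averaged 8.07 and 10.88.

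The remaining genes named for size toward IFN gamma belong to no single list. Ggct, the enzyme gamma-glutamylcyclotransferase of glutathione turnover, stood at 5.74, 4.93 and 5.18 with IFN alpha and at 9.17, 8.74 and 8.77 with IFN gamma (difference -3.61 ± 0.29, adjusted p = 7e-11). Il18rap, a chain of the IL-18 receptor, was at 4.04, 3.8 and 4.22 with IFN alpha, near mock (3.96, 3.8 and 3.8), and at 7.35, 7.38 and 7.14 with IFN gamma (difference -3.27 ± 0.22, adjusted p = 2e-12). Cyp26b1, which degrades retinoic acid, was at 5.16, 5.68 and 5.24 with IFN alpha and at 8.15, 9.21 and 8.41 with IFN gamma (difference -3.23 ± 0.40, adjusted p = 3.7e-07). No arrays of the 2 interferons overlapped for these 3 genes, and Cyp26b1 with IFN alpha lay near mock (5.23, 5.77 and 5.62).

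Rnd1, a small GTPase, averaged 6.66 with IFN alpha and 9.59 with IFN gamma, against 5.54 in mock (difference -2.92 ± 0.22, adjusted p = 2.5e-11). Tifa, an adaptor of TRAF6 signalling, averaged 4.08 with IFN alpha and 6.94 with IFN gamma (difference -2.86 ± 0.32, adjusted p = 4.3e-08). BC023105 averaged 3.49 with IFN alpha and 6.28 with IFN gamma, against 2.31 in mock (difference -2.79 ± 0.26, adjusted p = 1.5e-09). Rnd1 and BC023105 were also above mock with IFN alpha, by 1.13 and 1.17 (limma, adjusted p = 0.0013 and 0.0046).

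Actb, a housekeeping gene, stood at 13.34, 13.45 and 13.52 with IFN alpha and at 13.26, 13.37 and 13.41 with IFN gamma, and the arrays overlapped (difference 0.09 ± 0.12, adjusted p = 0.97). Of 25 ribosomal protein genes 0 were called by limma, 0 had an unadjusted p under 0.05, and the median was 0.05. In the list of death receptor and caspase genes 1 of 21 was higher and 2 lower with IFN alpha, beside 2.97% and 2.72% over all genes. The block gave 4 and 4, beside 5.75% and 4.58%. When each of the 6 arrays was left out in turn, Mlkl (higher) lost the call in 5 fits. Fas and Tnfrsf1a (lower) lost it in 6 and 3. Of 17 fibroblast and matrix markers 2 were higher and 1 lower, beside the same 2.97% and 2.72%. The lower one, Vim, differed by -0.48 ± 0.11 (limma, adjusted p = 0.0031), with means of 13.10 with IFN alpha and 13.58 with IFN gamma. These are bulk samples, so RNA from fewer cells and less RNA per cell cannot be told apart.

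The interferon difference was set beside that in the other windows, which share no arrays with it. With IFN alpha against IFN gamma, 18 genes were higher (0.189%) and 50 lower (0.524%) at 0-30 min, or 0.712% in all. At 150-180 min 181 were higher (1.9%) and 267 lower (2.8%), or 4.69% in all. At 0-60 min, with 200 µM 4sU, 225 were higher (2.36%) and 158 lower (1.65%), or 4.01% in all, a split that changed to 173 and 203 when all arrays were set to a common median and to 176 and 181 after quantile normalization. All 18 genes higher at 0-30 min were among the 284 (6.34% of them), as were 42 of the 50 lower among the 260 (16.2%). Of the 284, 140 were also higher at 0-60 min (49.3%, and 62.2% of the genes higher there), and of the 260, 133 were also lower (51.2%, and 84.2%). At 150-180 min 115 of the 284 were higher (40.5%, and 63.5%) and 142 of the 260 lower (54.6%, and 53.2%). Called in opposite directions were 3 genes, chosen after their values were seen: Tmem140 (0.64 at 30-60 and -1.74 at 150-180 min), Idnk (1.03 and -1.08) and Katna1 (0.79 and -0.75).

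**Figure D4:**
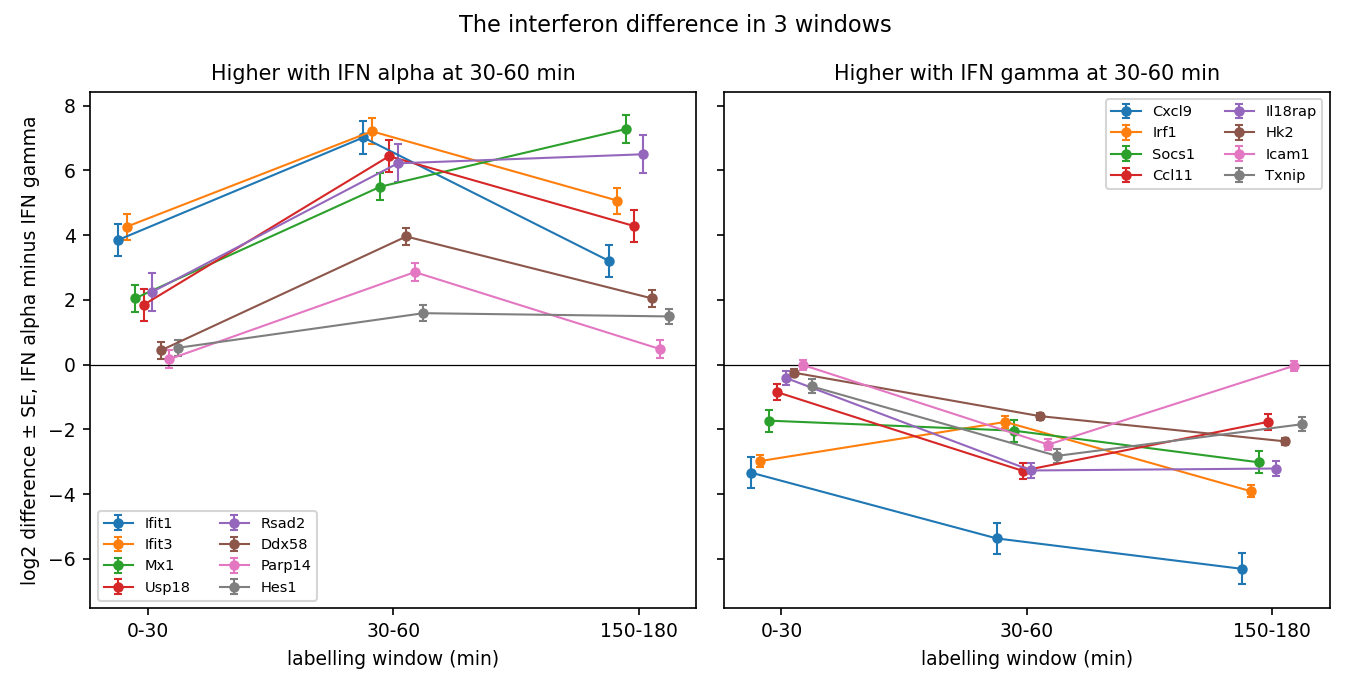
Log2 difference, IFN alpha minus IFN gamma, ± SE in 3 labelling windows of 3 arrays per group, for 8 genes higher with IFN alpha (left) and 8 higher with IFN gamma (right) at 30-60 min. Ddx58 and Parp14 are near 0 at 0-30 min and peak at 30-60 min, Mx1 stands at 2.05, 5.50 and 7.28 in the 3 windows, and Icam1 at -0.01, -2.47 and -0.04.

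The change of the difference between windows was itself tested. From 0-30 to 30-60 min it moved upward, toward IFN alpha, for 67 genes (0.702%) and downward for 42 (0.44%), or 1.14% in all, and 190 and 118 with the block. Ddx58 gave 0.44 at 0-30, 3.96 at 30-60 and 2.05 at 150-180 min, and its changes of 3.52 ± 0.39 from the early window and 1.91 ± 0.39 above the late one both passed (limma, adjusted p = 6.8e-07 and 0.0045). Parp14 gave 0.17, 2.86 and 0.48, with levels in the 3 windows of 3.75, 8.08 and 9.66 with IFN alpha and 3.58, 5.22 and 9.18 with IFN gamma. Parp14 levels under the interferons were thus close in the first and last windows and apart in the middle one. Rnf213 gave 0.02, 3.22 and 1.86, and Trim30a 0.25, 3.07 and 1.88.

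For 3 other genes the change from 30-60 to 150-180 min did not pass the test. Mx1 gave 2.05, 5.50 and 7.28 in the 3 windows, and Rsad2 2.25, 6.22 and 6.50, with a value at 30-60 min less that at 150-180 min of -1.78 ± 0.60 for Mx1 and -0.27 ± 0.84 for Rsad2 (limma, adjusted p = 0.27 and 1). Usp18 gave 1.85, 6.44 and 4.28, with IFN alpha at 4.63, 8.83 and 10.91 and IFN gamma at 2.78, 2.38 and 6.63. Its difference at 30-60 min less that at 150-180 min was 2.16 ± 0.71 (limma, adjusted p = 0.25), and its level with IFN gamma was highest in the late window. Against the late window the differences at 30-60 min moved up for 68 genes (0.712%) and down for 31 (0.325%), or 1.04% in all, and 178 and 82 with the block.

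Toward IFN gamma, Irf1 gave -2.98 at 0-30, -1.77 at 30-60 and -3.91 at 150-180 min, so its gap was smallest in the middle window, by 1.21 ± 0.27 against the early one and 2.14 ± 0.27 against the late one (limma, adjusted p = 0.011 and 3e-06). Il18rap gave -0.41, -3.27 and -3.21, and Hk2 -0.25, -1.59 and -2.37. Ccl11 gave -0.85, -3.28 and -1.77, with its largest gap in the middle window. Icam1 gave -0.01, -2.47 and -0.04, with levels of 2.36, 2.43 and 2.36 with IFN alpha and 2.38, 4.89 and 2.4 with IFN gamma. At 0-60 min its difference was -2.29.

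Several genes that were not called at 30-60 min differed more at 150-180 min, and the change passed the test for the 5 given here. Nlrc5, which switches on class I MHC genes, averaged 2.37 with IFN alpha and 2.38 with IFN gamma at 30-60 min, and 5.26 and 7.64 at 150-180 min. Cd274 gave 0.93 at 30-60 and -2.96 at 150-180 min, and Gbp2 -0.35 and -2.62. Oas2 gave 0 at 30-60 and 2.23 at 150-180 min, and Ifih1, which encodes the RNA sensor MDA5, 0.43 and 2.99. The bioC control differed between windows, from 7.5 to 7.62 with IFN alpha at 0-30 min, from 7.6 to 10.57 at 30-60 and from 7.18 to 7.31 at 150-180 min, and its part in the differences between windows was not tested.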

How the data were processed

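RNA labelled with 4sU in NIH-3T3 cells was measured on 36 Affymetrix arrays, 12 groups of 3, grouped by their titles. The authors deposited log2 values for 45101 probe sets, made with GCRMA per the submitters' processing notes, with its version and a genome build not given in the sources used here. Values lay between 1.34 and 14.82 and array medians between 3.13 and 3.27, so nothing was transformed further. Arrays give no counts, and their number per group limits the precision. In the platform annotation 34945 probe sets carried a single symbol, 932 several and 9160 none, and 64 controls were left out. Probe sets with several symbols named no gene. Symbols were checked by gene ID against RefSeq's GRCm38.p6 annotation, where 34741 matched and 0 changed.

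The filter on low values asked for more than log2 4 on 3 or more arrays. Each gene took the filtered probe set of highest average level, giving 9549 genes. Probe sets whose IDs end in _x_at or _s_at (those used for Socs3, Gbp2, Pim3, Tnfaip2, Tor3a and Sting1 among them) may bind more than one transcript. Other probe sets were called in 2 of 3 for Rgs2 and for Sod2, and in 1 of 2 for Ccnd1. None was called for Cd47 or Skil. limma 3.58.1 (R 4.3.3 and the data.table package, version 1.17.8) fitted the 12 group means over all 36 arrays, and eBayes used an intensity trend (24 residual and 6.8 prior degrees of freedom). The contrast was IFN alpha minus IFN gamma within the window. p-values were adjusted by Benjamini-Hochberg over all tested genes, and called means an adjusted p under 0.05. The fit was tested on simulated data with known differences, with noise drawn separately for each gene and array. That simulation held no shift shared by arrays of the same number, so it does not cover this feature of the real arrays.

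The named genes were a fixed panel, the 10 largest differences in each direction with separate arrays and a higher group of at least log2 6, up to 4 called members per list and direction, and the 5 largest differences between windows in each direction. The members and the 26 gene lists were chosen with earlier results of these data known. The numbers in the titles were taken to pair arrays, because arrays with the same number deviated together (correlations above 0.1 in every pair of the window), though the labels do not say what they mark. Alternatives changed the filter, offset, normalization, probe sets, arrays in the fit, trend, array weights, block and single arrays.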

Additional observations from a re-analysis of the deposited data

Results flagged for a closer look

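For 28 of the 103 named genes the difference between IFN alpha and IFN gamma at 30-60 min departed from that at 0-30 min, and for 22 it departed from that at 150-180 min, by limma's test of the difference between windows (adjusted p under 0.05 over all tested genes). These genes were picked out because the same contrast differed between time points. Over all 9549 tested genes, 109 departed from 0-30 min (1.14%) and 99 from 150-180 min (1.04%). The largest differences between windows in each direction were themselves a reason for naming genes, so part of both counts holds by construction. The counts of 28 and 22 therefore describe the named genes and do not test them. The values below are the log2 difference (IFN alpha minus IFN gamma) at 30-60 min less that in the other window.

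Against 0-30 min, 16 genes moved toward IFN alpha. Usp18 moved by 4.59, Rsad2 by 3.98, Mx2 by 3.91, Mx1 by 3.45, Ifit1 by 3.17, Ifit3 by 2.95 and Tor3a by 2.89. Among sensors and ADP-ribosylation genes, Ddx58 moved by 3.52, Parp14 by 2.69, Znfx1 by 2.67 and Tlr3 by 2.38. The ubiquitin ligase genes Rnf213, Trim30a and Trim26 moved by 3.20, 2.82 and 1.45, and the transcription factor genes Irf1 and Nr4a3 by 1.21 and 1.20. The difference for Irf1 stayed negative in both windows.

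Against 0-30 min, 12 genes moved toward IFN gamma. Il18rap moved by -2.86, Cyp26b1 by -2.77, Icam1 by -2.45, Ccl11 by -2.43, Bnip3 by -2.39, Txnip by -2.16 and BC023105 by -2.04. Smaller moves were -1.72 for Tifa, -1.34 for Hk2, -1.26 for both Pim3 and Samhd1, and -0.96 for Il6st.

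Against 150-180 min, 16 genes lay farther toward IFN alpha at 30-60 min. Cd274 did so by 3.89, Ifit1 by 3.81, Zbtb7c by 3.34, Batf2 by 2.75, Gbp8 by 2.62, Parp14 by 2.38, Nlrc5 by 2.37, Gbp2 by 2.27 and Ddx58 by 1.91. The antigen presentation genes H2-M3, Psmb10 and Tapbp did so by 2.21, 2.20 and 1.79. For genes higher with IFN gamma in both windows the values were 2.14 for Irf1, 1.23 for Tnfaip2, 1.09 for Socs3 and 0.78 for Hk2. The 6 genes farther toward IFN gamma at 30-60 min were Oasl1 (-3.03), Ifih1 (-2.56), Icam1 (-2.43), Ddx60 (-2.36), Oas2 (-2.23) and Ccl11 (-1.51).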

How the results depend on the processing

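The 544 calls of IFN alpha against IFN gamma moved most with how the spread was estimated. With array number as a replicate block there were 549 higher, 437 lower and 986 in all, and with array weights, whose iteration did not converge, 944, 1141 and 2085. Fewer genes were called when only the 6 arrays compared were fitted: 181 higher, 182 lower and 363 in all, with 334 of the 544 kept. Only the 9 arrays of the window gave 225, 205 and 430. The 6 arrays with the block as well gave 670, 515 and 1185. A 2-fold minimum left 131, 136 and 267, and the share of genes higher with IFN alpha that hold the GAAA pair motif was then 18.3%. Leaving out 1 of the 6 arrays gave 428 to 470 calls, and leaving out mock 0-60 min array 1, whose Gapdh 3′ minus 5′ difference of 2.67 stood apart, gave 709. At 0-60 min (alternatives chosen after seeing the data) the arrays compared alone gave 64, 74 and 138, and the block 618, 294 and 912. For 30-60 less 0-30 min, the block gave 190, 118 and 308, weights 466, 369 and 835, and the arrays compared alone 101 higher. For 30-60 less 150-180 min, the block gave 178, 82 and 260, weights 454, 519 and 973, and a filter at log2 6 left 17 lower. For the 83 called named genes, 0 of 1076 values under settings other than leaving an array out reversed and 97 lost the call; without 1 array 79 of 581 lost it, and 61 of the 83 genes always kept it. Genes near 0 changed sign without a call: Oas2 was -0.01 with a common median and -0.01 to 0.01 without 1 array, Nlrc5 -0.01 to 0, Ddx60 -0.05 to 0.40 and Gbp8 -0.01 to 0.08. The cause was not tested. The number of arrays, their spread and the background at low signal limit the precision.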

Other observations

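The 3 genes Batf2, Zbtb7c and Gbp8 were near background with both interferons at 30-60 min and in mock. At 150-180 min Batf2, a transcription factor of the BATF family, averaged 2.39 with IFN alpha and 5.16 with IFN gamma. Zbtb7c averaged 2.08 with IFN alpha and 5.58 with IFN gamma there, and Gbp8, a guanylate-binding protein, 2.77 and 5.34. Oasl1 averaged 5.61 with IFN alpha and 2.44 with IFN gamma at 150-180 min, beside 2.61 and 2.46 at 30-60 min.

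Tnfrsf1a, the main TNF receptor, averaged 8.43 with IFN alpha and 9.32 with IFN gamma at 30-60 min, against 7.95 in mock (difference -0.89 ± 0.23, limma, adjusted p = 0.012). It lost the call without IFN alpha array 1 (-0.61, adjusted p = 0.16), IFN gamma array 2 (-0.70, adjusted p = 0.12) or IFN gamma array 3 (-0.84, adjusted p = 0.056). Pfkfb3, which makes an activator of glycolysis, averaged 4.62 with IFN alpha and 3.73 with IFN gamma, against 4.59 in mock (difference 0.89 ± 0.23, limma, adjusted p = 0.012). It lost the call without IFN alpha array 1 (0.72, adjusted p = 0.11) or IFN gamma array 2 (0.81, adjusted p = 0.072).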
